A study of Mus musculus with 15 samples.

Results

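Expression of 48 homeobox and PAX genes outside the Hox clusters was examined in mouse embryonic stem cells (mESCs) depleted of the cohesin subunits STAG1, STAG2 or both. The genes were taken by symbol from a list of gene names and comprise 6 DLX, 8 LHX, 6 IRX, 5 SIX-family, 5 NKX and 7 PAX genes and 11 others (EMX, EN, GBX, ISL, MSX, OTX and PITX). All 48 were among the 23412 genes counted in each of the 15 polyA RNA-seq libraries. Of the 48, 28 had enough counts to be tested, 20 had too few, and none was at 0 in every library.

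All cells were v6.5, a male mESC line grown on gelatin, and all received 50 nM of siRNA and were harvested after 48 h. The siRNA was either siGLO, a transfection control, or siStag1, directed against Stag1. There were 5 conditions with 3 libraries each: wild-type cells with siGLO (WT siGLO), wild-type cells with siStag1 (WT siStag1), Stag1-KO cells with siGLO, Stag2-KO cells with siGLO, and Stag2-KO cells with siStag1. Each knockout was 1 CRISPR/Cas9 clone carrying a homozygous deletion, in 1 exon of Stag1 or across neighbouring exons of Stag2, so genotype and clone cannot be told apart. No source used here says that the 3 libraries of a condition came from separate cultures on separate days, and p-values therefore measure only the spread between these libraries.

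Homeobox genes encode transcription factors that bind DNA through a homeodomain, and PAX factors bind through a paired domain with or without a homeodomain. They lay out the body and the nervous system: SIX-family and LHX factors act in the eye, forebrain and pituitary, EN, OTX and GBX factors set up the midbrain and hindbrain, NKX and PAX factors pattern the neural tube from its ventral and dorsal sides, and DLX and IRX factors act in limb, head and heart. In mESCs most of these genes are held at low levels with promoters rich in CpG, a frequent feature of developmental regulators under Polycomb control. Cohesin, whose ring is bound by either STAG1 or STAG2, folds chromatin into loops that bring enhancers and promoters together.

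A promoter window in the RefSeq table of GRCm38.p6 (mm10), running from 250 bases before to 50 bases after an annotated start, was found for 36 of the 48 genes. The windows below belong to 3 genes that were higher in Stag2-KO siGLO cells than in wild-type cells (En1 and the neighbours Six3 and Six2) and to 3 that were lower in Stag2-KO cells with either siRNA (Six4, Nkx6-2 and Lhx6). Each is written 5′ to 3′ on the strand of its gene and spans the RefSeq start, with every CG dinucleotide in capitals. Where RefSeq lists several starts, the one nearest to the 5′ end in GENCODE M21 is shown. The RefSeq start of Six3 lies 7226 bases inside the gene as GENCODE M21 draws it, while those of the other genes shown lie within 69 bases of the GENCODE 5′ end.
En1, chr1:120602237-120602536, plus strand: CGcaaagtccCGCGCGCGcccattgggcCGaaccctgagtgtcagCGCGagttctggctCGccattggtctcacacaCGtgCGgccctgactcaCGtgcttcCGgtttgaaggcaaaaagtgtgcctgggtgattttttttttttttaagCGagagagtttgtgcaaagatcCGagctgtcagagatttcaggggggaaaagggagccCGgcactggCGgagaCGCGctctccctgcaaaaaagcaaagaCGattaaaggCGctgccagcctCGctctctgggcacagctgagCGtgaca
Six3, chr17:85620584-85620883, plus strand: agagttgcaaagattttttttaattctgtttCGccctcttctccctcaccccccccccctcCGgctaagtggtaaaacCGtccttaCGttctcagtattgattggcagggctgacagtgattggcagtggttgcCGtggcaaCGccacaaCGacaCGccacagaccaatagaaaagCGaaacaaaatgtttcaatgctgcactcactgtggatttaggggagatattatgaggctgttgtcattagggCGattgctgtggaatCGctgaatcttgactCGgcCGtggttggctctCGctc
Six2, chr17:85688205-85688504, minus strand: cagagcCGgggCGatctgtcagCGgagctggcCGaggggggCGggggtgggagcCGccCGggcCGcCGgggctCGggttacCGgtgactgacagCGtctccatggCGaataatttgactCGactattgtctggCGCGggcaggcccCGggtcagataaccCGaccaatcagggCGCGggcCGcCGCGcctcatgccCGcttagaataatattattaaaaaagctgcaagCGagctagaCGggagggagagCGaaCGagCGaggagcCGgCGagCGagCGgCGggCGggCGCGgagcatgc
Six4, chr12:73113376-73113675, minus strand: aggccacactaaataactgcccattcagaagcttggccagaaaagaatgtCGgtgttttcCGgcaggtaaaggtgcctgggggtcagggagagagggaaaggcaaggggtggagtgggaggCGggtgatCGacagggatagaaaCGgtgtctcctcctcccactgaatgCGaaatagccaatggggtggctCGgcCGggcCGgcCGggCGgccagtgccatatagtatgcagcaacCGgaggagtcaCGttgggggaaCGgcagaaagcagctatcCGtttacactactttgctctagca
Nkx6-2, chr7:139582748-139583047, minus strand: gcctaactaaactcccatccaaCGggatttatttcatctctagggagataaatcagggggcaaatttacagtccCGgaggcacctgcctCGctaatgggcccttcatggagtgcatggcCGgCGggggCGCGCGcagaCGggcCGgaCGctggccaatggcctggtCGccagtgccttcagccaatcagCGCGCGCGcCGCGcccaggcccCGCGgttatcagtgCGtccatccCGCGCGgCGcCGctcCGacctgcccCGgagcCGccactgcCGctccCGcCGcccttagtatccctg
Lhx6, chr2:36105359-36105658, minus strand: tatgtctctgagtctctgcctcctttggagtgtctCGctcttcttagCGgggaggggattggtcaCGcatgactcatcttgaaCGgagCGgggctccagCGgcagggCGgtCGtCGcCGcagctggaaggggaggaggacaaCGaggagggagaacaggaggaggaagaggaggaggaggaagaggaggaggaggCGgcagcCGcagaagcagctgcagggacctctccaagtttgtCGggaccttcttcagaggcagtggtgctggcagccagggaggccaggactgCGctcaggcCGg

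The windows shown hold from 14 (Six3) to 37 (Six2) CG dinucleotides. Over the 36 windows the median was 21.5 and the range 4 (Lhx8) to 40 (Nkx6-1), against a median of 7 over all 32851 RefSeq windows of this length. At least 1 CG was found in 100% of the members' windows and in 94.6% of all windows. The homeodomain core TAAT, searched on both strands and unable to overlap a CG, occurred in 50% of the members' windows and in 58% of all windows. These matches are a description of letters in the windows and not of binding. Both the 3 genes shown that were higher and the 3 that were lower had windows above the median of all promoters in CG.

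Between 14982560 and 19070126 counts fell on genes in each library, and the floor of 3 counts lay at 0.157 to 0.2 CPM, a unit that relates a count to the total of its library. This floor covers counting error only. Stag1 was lower after siStag1, with normalized counts of 353 to 518 in WT siStag1, 629 to 781 in Stag2-KO siStag1 and 2012 to 2288 in WT siGLO. The siStag1 effect on Stag1 was smaller in Stag2-KO than in wild-type cells by a log2 of 0.75 ± 0.19, with an adjusted p of 0.254 in edgeR's test of that difference and 0.0253 with the replicate block. Stag2 was lower in Stag2-KO siGLO (663 to 739) than in WT siGLO (2329 to 2334). Stag1 in Stag1-KO siGLO lay at 1826 to 2368, which overlaps WT siGLO. Its deletion covers a small piece of the transcript, so the gene count does not check that label. The authors of the study report that the deletion is in frame and that western blot found no STAG1 protein in this clone. All 6 embryonic stem cell markers were detected in every condition, and their summed normalized counts were 53960 to 60220 in WT siGLO, 48060 to 49080 in WT siStag1, 43570 to 50650 in Stag1-KO siGLO, 43200 to 49420 in Stag2-KO siGLO and 27470 to 30490 in Stag2-KO siStag1. Pou5f1 gave the largest part of each sum. In edgeR's test against WT siGLO, Esrrb, Klf4 and Zfp42 were called lower in Stag2-KO siGLO and all 6 in Stag2-KO siStag1. Esrrb had means of 11610, 6546 and 1862 in WT siGLO, Stag2-KO siGLO and Stag2-KO siStag1 (adjusted p = 0.000701 and 5.07e-09). In Stag1-KO siGLO only Pou5f1 was called lower (adjusted p = 0.0831). With the replicate block 3, 4 and 1 were called lower in Stag1-KO siGLO, Stag2-KO siGLO and WT siStag1. Markers of other cell types moved between the conditions as well. The 4 neural progenitor markers (Sox1, Nes, Zic1 and Fabp7) summed to 1065 to 1291 in WT siGLO, 1115 to 1247 in WT siStag1, 907.6 to 1193 in Stag1-KO siGLO, 1316 to 2747 in Stag2-KO siGLO and 1847 to 3491 in Stag2-KO siStag1, and Nes gave most of each mean. Sox1 differed from that sum, with mean normalized counts of 440.1 in WT siGLO, 241.1 in WT siStag1 (adjusted p = 0.943), 58.43 in Stag1-KO siGLO (adjusted p = 0.004), 656.7 in Stag2-KO siGLO (adjusted p = 0.465) and 254.1 in Stag2-KO siStag1 (adjusted p = 0.263, and 0.0643 with the replicate block). The 5 primitive streak and mesoderm markers summed to 240.3 to 353 in WT siGLO, 243.6 to 303.5 in WT siStag1, 239.6 to 307 in Stag1-KO siGLO, 202 to 498 in Stag2-KO siGLO and 147 to 170.5 in Stag2-KO siStag1, and they differed in direction. T (brachyury) had a mean of 9.1 in WT siGLO, 128 in Stag2-KO siGLO (adjusted p = 0.000521) and 37.3 in Stag2-KO siStag1 (adjusted p = 0.021), whereas Eomes was lower, at 246.5, 134 and 90.6 (adjusted p = 0.018 and 0.000308), and Mixl1 and Tbx6 were not called in either without the replicate block. With the block Mixl1 was called higher and Tbx6 lower in Stag2-KO siGLO (adjusted p = 0.0865 and 0.0982). Tbx6 was also called lower with the block in Stag2-KO siStag1 (adjusted p = 0.0692). The 4 endoderm markers summed to 1668 to 1888 in WT siGLO and 1663 to 1874 in WT siStag1, and to 176 to 280 in Stag1-KO siGLO, 249 to 476 in Stag2-KO siGLO and 251 to 414 in Stag2-KO siStag1. The part of these changes in the results that follow was not tested, and in bulk RNA fewer cells of a type cannot be told apart from less RNA per cell.

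Most of the genes were present at low levels. The mean normalized count over the 15 libraries (each count over the effective size that TMM scaling gives its library, set to a shared depth) was 21.7 for the median tested member and ran from 5.96 to 1497. Per kilobase of exon in GENCODE M21, Gbx2 had the highest level in WT siGLO at 30.3 ± 9.22 CPM per kb (mean ± SD, n = 3), followed by Six4 at 6.82 ± 0.441, Nkx6-2 at 3.13 ± 0.907 and En2 at 2.67 ± 0.535. Gbx2, which patterns the anterior hindbrain and is also known as a pluripotency-associated gene in mESCs, and Six4 stood apart from the genes below them, whereas Nkx6-2 and En2 did not differ beyond their spread. Gbx2 and Six4 kept places 1 and 2 in each of the 5 conditions. En1, at 2.15 ± 1.52 CPM per kb in Stag2-KO siGLO, was among the highest 5 there, and not in the other conditions.

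**Figure D1:**
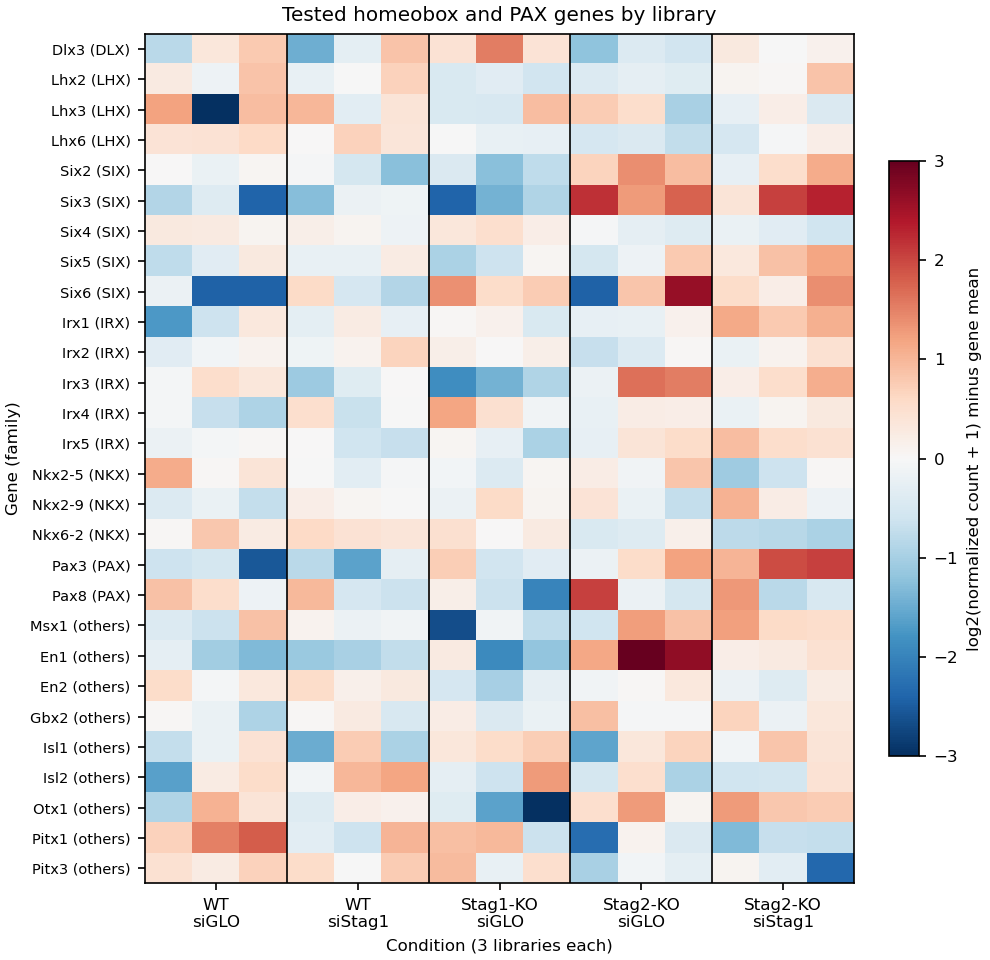
Level of each of the 28 tested homeobox and PAX genes (rows, with family) in each of the 15 libraries (columns, grouped by condition), as log2(normalized count + 1) minus the gene's mean; colours stop at 3 above and below. En1 is highest in the Stag2-KO siGLO columns, Six3 is high in all 6 Stag2-KO columns but 1, Pax3 and Irx1 are highest in Stag2-KO siStag1, and Irx3 is lowest in Stag1-KO siGLO.

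To find which of these regulators differ when STAG1, STAG2 or both are depleted, all 14508 genes that passed the filter were fitted with edgeR's quasi-likelihood test, and a gene was called at a Benjamini-Hochberg adjusted p under 0.1 over all of them. Stag2-KO siGLO cells had higher levels of the forebrain and eye genes Six3 and Six6, of Six2, Pax3 and En1, and lower levels of Lhx6, Six4, Nkx6-2 and Pitx1 than WT siGLO. That is 9 of 28 tested members (32.1%), 5 higher and 4 lower, where 28.3% of all genes tested were called, 13.9% higher and 14.4% lower. In Stag1-KO siGLO 5 of 28 were called (17.9%), Irx4 higher and Lhx6, Irx3, En2 and Otx1 lower, where 20.0% of all genes were called, 10.1% higher and 9.93% lower. In Stag2-KO siStag1, in which both STAG proteins were depleted, 11 of 28 were called against WT siGLO (39.3%), 6 higher and 5 lower, where 43.9% of all genes were called, 22.6% higher and 21.3% lower. In each of these comparisons the share of members called was close to that of all genes. The median log2 fold change of the 28 members was -0.19 in Stag1-KO siGLO, 0.34 in Stag2-KO siGLO and 0.46 in Stag2-KO siStag1, beside -0.01, 0.01 and 0.01 over all genes tested. Six2, Six3 and Pax3 reached 10 counts only in Stag2-KO libraries and so could be tested only through the libraries in which they are high, and Pitx1 reached 10 in no Stag2-KO library. Six6 reached 10 counts only in knockout libraries, with at most 13 in Stag1-KO siGLO, 30 in Stag2-KO siGLO and 13 in Stag2-KO siStag1. The counts and medians of the tested members in the knockout comparisons therefore depend in part on the filter. These comparisons share the WT siGLO libraries and are not independent of each other.

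The calls were unevenly stable. The count of 5 in Stag1-KO siGLO became 3 without WT siGLO replicate 2, 2 without WT siGLO replicate 3, 2 without Stag1-KO siGLO replicate 1, 2 without its replicate 2 and 3 without its replicate 3. With the replicate number as a block it became 8, adding Lhx2, Six6 and Pax8, while the share of all genes called rose from 20.0% to 30.6%. The count of 9 in Stag2-KO siGLO became 5 without WT siGLO replicate 2, and with the block it was 12, 7 higher and 5 lower, where 39.4% of all genes were called. In that knockout Stag2-KO siGLO replicate 1 was lower than the other 2 libraries for En1, Irx3 and the neural progenitor markers, and without it 9 members were again called, Nkx6-2 no longer and Irx3 in its place.

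**Figure D2:**
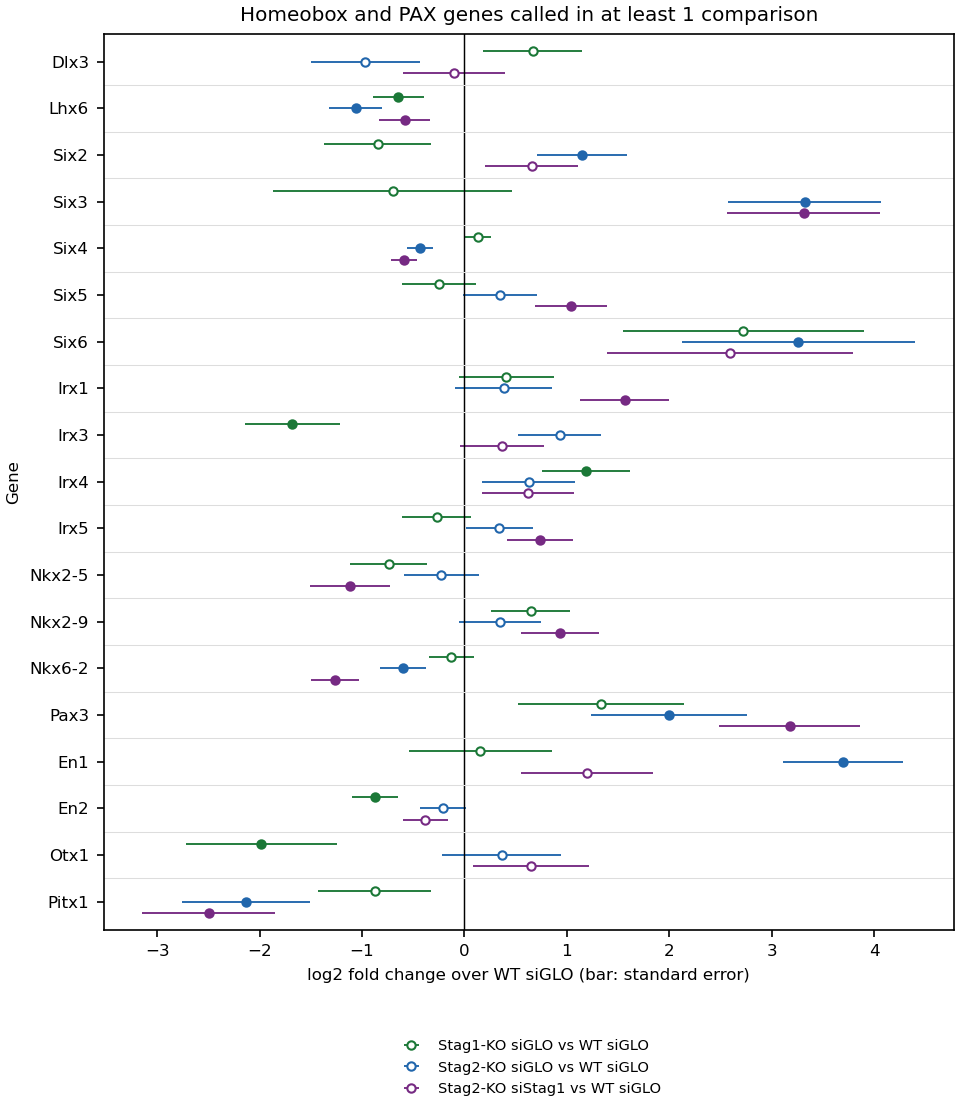
Log2 fold change over WT siGLO with its standard error (x axis) of the 19 members called in at least 1 of all comparisons (y axis), for Stag1-KO siGLO (green), Stag2-KO siGLO (blue) and Stag2-KO siStag1 (purple), each with 3 libraries; filled points are called at an adjusted p under 0.1. Six3, Pax3, Six4, Nkx6-2, Pitx1 and Lhx6 have filled points in both Stag2-KO conditions, En1 only in Stag2-KO siGLO, and Irx3, Irx4, En2 and Otx1 only in Stag1-KO siGLO.

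SIX-family factors bind DNA through a SIX-type domain and a homeodomain and act with EYA coactivators and DACH corepressors. All 5 members were tested, and 4 of them were called in Stag2-KO siGLO against WT siGLO: Six2, Six3 and Six6 higher and Six4 lower. The share over all genes there was 28.3%, and the calls of Six2 and Six6 depended on single libraries. In Stag2-KO siStag1 the calls were Six3 and Six5 higher and Six4 lower, and in Stag1-KO siGLO none of the 5 was called, although 1 (Six6) had an unadjusted p under 0.05. Six3, required for forebrain and eye formation, had normalized counts of 1.87, 3.05 and 0 in WT siGLO, 1.17, 3.68 and 3.87 in WT siStag1 and 0, 0.974 and 1.81 in Stag1-KO siGLO. It reached 23.3, 11.9 and 16.9 in Stag2-KO siGLO and 5.91, 20.8 and 25.3 in Stag2-KO siStag1. Every Stag2-KO library of either siRNA was above every library of the other 3 conditions. The log2 fold change over WT siGLO was 3.32 ± 0.75 (SE, edgeR adjusted p = 0.00554) in Stag2-KO siGLO and 3.32 ± 0.748 (adjusted p = 0.00258) in Stag2-KO siStag1, and both calls held without any single library, rising to 4.02 in each without WT siGLO replicate 2. Six3 shares 106 bases of exon with the opposite-strand Six3os1, whose counts were 1 to 3 in WT siGLO, 2, 7 and 16 in Stag2-KO siGLO and 0, 7 and 20 in Stag2-KO siStag1, and since the strand setting of the counting is not given in the sources used here, reads of the overlap cannot be assigned to either gene. Six3 also shares 168 bases of exon with the opposite-strand Gm28528, which was not among the genes counted.

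Six2, which maintains nephron progenitors in the kidney, starts 74.7 kb from Six3 on chromosome 17. Its normalized counts were 8.41, 7.12 and 8.71 in WT siGLO, 13.8, 23.7 and 16.9 in Stag2-KO siGLO, and 6.9, 12.5 and 19.2 in Stag2-KO siStag1. The 3 Stag2-KO siGLO libraries lay above the wild-type ones, with a log2 fold change of 1.15 ± 0.443 (adjusted p = 0.0779), whereas Stag2-KO siStag1 overlapped WT siGLO. This call was lost without WT siGLO replicate 1, 2 or 3 or Stag2-KO siGLO replicate 2 or 3 (log2 0.91 to 1.31 over the omissions, adjusted p up to 0.249) and by DESeq2.

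Six6, a retinal and hypothalamic paralogue of Six3, was near the floor in WT siGLO at 3.74, 0 and 0. Its Stag2-KO siGLO libraries held 0, 8.62 and 31.7, so the groups overlapped, and the log2 fold change of 3.26 ± 1.14 (adjusted p = 0.0535) was no longer called without WT siGLO replicate 2 or 3 or Stag2-KO siGLO replicate 3 (down to 1.64, adjusted p up to 0.39). Without WT siGLO replicate 1, the wild-type library that held its counts, the adjusted p was 0.0326. Over all omissions the log2 fold change ran up to 6.76. In Stag2-KO siStag1 Six6 lay at 5.2 to 13.2 normalized counts, above all WT siGLO libraries. It was not called there by edgeR without the replicate block, but was with the block (adjusted p = 0.0816) and by DESeq2 (adjusted p = 0.0687). In Stag1-KO siGLO it stood at 12.8, 6.81 and 8.14, above all WT siGLO libraries, with an adjusted p of 0.143 that fell to 0.0929 with the replicate block. Six6 shares 192 bases of exon with the opposite-strand gene 4930447C04Rik, which had 303.9 to 328 normalized counts in WT siGLO, 211 to 423 in Stag2-KO siGLO and 75.8 to 409 in Stag1-KO siGLO.

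Six4 and Six5, which act in muscle precursors, were the SIX-family genes with substantial counts. Six4 had 1361, 1341 and 1174 normalized counts in WT siGLO and 1265, 1173 and 1005 in WT siStag1. In Stag2-KO siGLO it fell to 1093, 929 and 856 (log2 -0.43 ± 0.126, adjusted p = 0.0243) and in Stag2-KO siStag1 to 971, 874 and 731 (log2 -0.59 ± 0.126, adjusted p = 0.00178). All Stag2-KO libraries of either siRNA were below all WT siGLO libraries, and both calls held without any single library. Six5 had 55.2, 74.2 and 115 in WT siGLO and 116, 173 and 214 in Stag2-KO siStag1, with no overlap (log2 1.04 ± 0.353, adjusted p = 0.03). This call was lost without WT siGLO replicate 1 (log2 0.82) or Stag2-KO siStag1 replicate 3 (log2 0.83). Against Stag2-KO siGLO the adjusted p was 0.339, and 0.0119 with the replicate block (log2 0.74). In Stag2-KO siGLO alone Six5 was not called, with 64.5, 84 and 163.

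**Figure D3:**
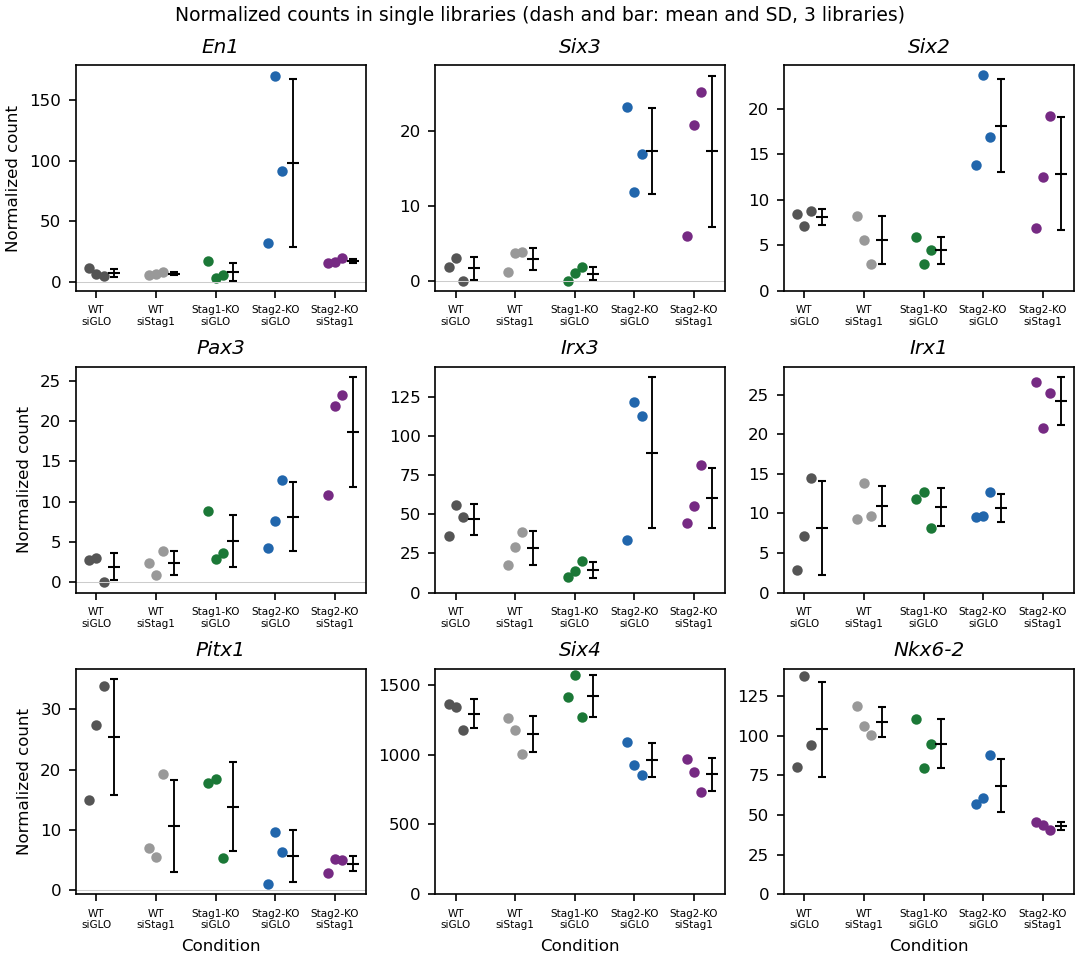
Normalized counts (y axis, linear, starting at or below 0) of 9 homeobox and PAX genes in each library of the 5 conditions (x axis); dots are single libraries, and the dash and bar give the mean and SD of 3. En1 reaches 170 in Stag2-KO siGLO and at most 19.2 in Stag2-KO siStag1, Pax3 and Irx1 are highest in Stag2-KO siStag1, and Six4 and Nkx6-2 are lowest there.

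The engrailed genes En1 and En2 encode transcriptional repressors that define the midbrain and cerebellar territory. En1 had raw counts of 12, 6 and 5 in WT siGLO and 30, 158 and 87 in Stag2-KO siGLO. As normalized counts these are 11.2, 6.1 and 4.84 against 31.7, 170 and 91.9, with the lowest knockout library above the highest wild-type one. The log2 fold change was 3.7 ± 0.588 (adjusted p = 0.000434), with 3.04 to 4.13 when single libraries were left out, lowest without Stag2-KO siGLO replicate 2, and 4.12 without replicate 1. The 3 libraries of this knockout also differed in the summed neural progenitor markers, at 1316, 2704 and 2747 in the same order, and their part in the level of En1 was not tested. Stag1-KO siGLO (16.7, 2.92 and 5.42) and WT siStag1 (5.83, 6.44 and 7.74) overlapped WT siGLO.

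En1 was also the only member called between the siRNAs within Stag2-KO cells in the fit without the replicate block, which added Six5 and Irx1. Stag2-KO siStag1 held 15.8, 16.6 and 19.2 normalized counts, below all 3 Stag2-KO siGLO libraries, with a log2 fold change of -2.5 ± 0.532 (adjusted p = 0.0142). Between the same groups the mean of Sox1 was lower, 254.1 against 656.7 (adjusted p = 0.192, and 0.0479 with the replicate block), as was that of T, 37.3 against 128 (adjusted p = 0.0723), and that of Nes was higher, 2357 against 1574 (adjusted p = 0.12, and 0.0386 with the block). Their part in the En1 difference was not tested. The En1 call held without any single library (log2 -2.92 to -1.84, the latter without Stag2-KO siGLO replicate 2) but not in a fit of these 6 libraries alone (log2 -2.51). Stag2-KO siStag1 lay above every WT siGLO library, with a log2 fold change of 1.2 that was not called (adjusted p = 0.16), although it was in a fit of these 6 libraries alone (adjusted p = 0.0578). The change of En1 with siStag1 differed between Stag2-KO and wild-type cells by a log2 of -2.35 ± 0.917, with an unadjusted p of 0.0205 and an adjusted p of 0.683 in edgeR's test of that difference.

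En2 was lower in Stag1-KO siGLO, at 93.5, 66.2 and 111 normalized counts against 198, 129 and 168 in WT siGLO. The groups did not overlap, and the log2 fold change was -0.87 ± 0.226 (adjusted p = 0.0167), a call that held without any single library and under all 8 other settings. In Stag2-KO siGLO En2 was at 125, 137 and 168, in Stag2-KO siStag1 at 118, 103 and 160 and in WT siStag1 at 196, 149 and 165, and none of these was called. The Stag2-KO siStag1 value was called against WT siGLO with the replicate block (adjusted p = 0.0759) and without Stag2-KO siStag1 replicate 3 (log2 -0.58, adjusted p = 0.0818). En1 and En2 were thus called in different knockouts against WT siGLO, with adjusted p of 0.541 for En2 in Stag2-KO siGLO and 0.917 for En1 in Stag1-KO siGLO.

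Otx1, a forebrain and midbrain gene, was low throughout. It had 3.74, 17.3 and 10.6 normalized counts in WT siGLO and 5.91, 1.95 and 0 in Stag1-KO siGLO, which overlap. The log2 fold change of -1.98 ± 0.736 (adjusted p = 0.0863) was lost without WT siGLO replicate 2 (-1.44) or 3 (-1.97) or Stag1-KO siGLO replicate 2 (-1.83) or 3 (-1.39), and was -3.31 without Stag1-KO siGLO replicate 1.

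Pitx1, a hindlimb and pituitary gene, was lower in Stag2-KO cells. Its normalized counts were 15, 27.5 and 33.9 in WT siGLO, 1.06, 9.7 and 6.33 in Stag2-KO siGLO and 2.96, 5.2 and 5.06 in Stag2-KO siStag1. All 6 Stag2-KO libraries were below the wild-type ones, with log2 fold changes of -2.13 ± 0.627 (adjusted p = 0.0246) and -2.5 ± 0.647 (adjusted p = 0.00657), and both calls held without any single library. The former was -1.65 without Stag2-KO siGLO replicate 1 and -2.74 without replicate 2. WT siStag1 (6.99, 5.52 and 19.4) and Stag1-KO siGLO (17.7, 18.5 and 5.42) overlapped WT siGLO and were not called. The summed endoderm markers given at the outset were lower in both Stag2-KO conditions and in Stag1-KO siGLO, and their part in the Pitx1 difference was not tested.

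Of the remaining genes in this mixed group, Gbx2, Isl1, Isl2, Msx1 and Pitx3 were tested and not called in the fit of all libraries without the replicate block. Pitx3 was called lower in Stag2-KO siStag1 than in WT siGLO without Stag2-KO siStag1 replicate 1 (adjusted p = 0.055), and Msx1 only between the knockouts under other settings. Gbx2 had 1463, 1252 and 746 normalized counts in WT siGLO and 2685, 1401 and 1386 in Stag2-KO siGLO, which overlap. Its log2 fold change of 0.66 had an adjusted p of 0.123, which became 0.0211 with the replicate block, 0.0931 with no filter on low counts, 0.0771 without WT siGLO replicate 1 and 0.0857 without Stag2-KO siGLO replicate 3. Stag2-KO siStag1, at 2281, 1271 and 1794, overlapped WT siGLO too, with a log2 fold change of 0.63 ± 0.293 and an adjusted p of 0.107. It was called with library size alone, with no filter, with only the libraries compared, with the block (adjusted p = 0.0832, 0.0864, 0.0892 and 0.0136), without WT siGLO replicate 1 and without Stag2-KO siStag1 replicate 2 (adjusted p = 0.0634 and 0.0571). Isl1 and Isl2, motor neuron genes, Msx1, a craniofacial gene, and Pitx3, a gene of dopaminergic neurons and the lens, had between 0 and 18.7 normalized counts in every library.

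IRX (Iroquois) factors are homeodomain proteins with an additional IRO motif that act in neural tube, heart and limb, and the 6 genes form 2 clusters of 3, on chromosomes 8 and 13. Irx3, of the chromosome 8 cluster, went in opposite directions in the knockouts. Its normalized counts were 36.5, 55.9 and 48.4 in WT siGLO, 9.84, 13.6 and 19.9 in Stag1-KO siGLO and 33.9, 122 and 113 in Stag2-KO siGLO. All Stag1-KO libraries were below all others of those 3 conditions, while Stag2-KO siGLO replicate 1 fell below WT siGLO. The fall in Stag1-KO siGLO was called (log2 -1.68 ± 0.465, adjusted p = 0.0237), and without Stag1-KO siGLO replicate 1 it was -1.47 with an adjusted p of 0.103. The log2 fold change of 0.93 ± 0.405 in Stag2-KO siGLO was not called (adjusted p = 0.116), but it was with the replicate block (adjusted p = 0.0245) and without Stag2-KO siGLO replicate 1 (log2 1.32, adjusted p = 0.00814). WT siStag1 (17.5, 29.4 and 38.7) and Stag2-KO siStag1 (44.4, 55.1 and 81.9) overlapped WT siGLO.

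Irx5, 556 kb from Irx3, did not follow it in Stag1-KO siGLO (26.6, 21.4 and 12.7 against 22.4, 24.4 and 26.1 in WT siGLO). It was called in Stag2-KO siStag1 only, at 49.3, 37.5 and 35.4, all above wild type (log2 0.74 ± 0.321, adjusted p = 0.0827). That call was lost without WT siGLO replicate 1, 2 or 3 or Stag2-KO siStag1 replicate 1 or 2 (log2 0.58 to 0.83 over the omissions, adjusted p up to 0.231).

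In the chromosome 13 cluster, Irx1 was called in Stag2-KO siStag1. Its normalized counts there were 26.6, 20.8 and 25.3, above every library of the other 4 conditions, which lay between 2.81 and 14.5. The log2 fold change over WT siGLO was 1.56 ± 0.434 (adjusted p = 0.0101) and held without any single library, being 2.28 without WT siGLO replicate 3. Against Stag2-KO siGLO it was 1.18 ± 0.424, not called in the unblocked fit (adjusted p = 0.152) and called with the replicate block (adjusted p = 0.0907). Irx4, a ventricular heart gene, was the only member called higher in Stag1-KO siGLO, at 32.5, 19.5 and 12.7 against 13.1, 8.13 and 6.78. These overlap, and the log2 fold change of 1.19 ± 0.431 (adjusted p = 0.0801) was lost without WT siGLO replicate 2 (1.1) or 3 (1) or Stag1-KO siGLO replicate 1 (0.77) or 2 (1.25). Irx2, at 49.7 to 131 normalized counts over the 15 libraries, was called in no comparison without the replicate block, and Irx6 was not tested.

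NKX factors are homeodomain proteins of heart, gut and ventral neural tube. Nkx6-2, which acts in ventral neural progenitors and oligodendrocytes, fell in both Stag2-KO conditions. It had 80.4, 137 and 93.9 normalized counts in WT siGLO, 57.1, 60.4 and 87.6 in Stag2-KO siGLO and 45.3, 43.7 and 40.5 in Stag2-KO siStag1. The Stag2-KO siStag1 libraries were below every other library. Against WT siGLO they gave a log2 fold change of -1.26 ± 0.236 (adjusted p = 0.000635), which held without any single library. The -0.6 ± 0.228 of Stag2-KO siGLO (adjusted p = 0.0746) was lost without WT siGLO replicate 2 (-0.35), Stag2-KO siGLO replicate 1 (-0.49) or Stag2-KO siGLO replicate 2 (-0.52). WT siStag1 (119, 106 and 101) and Stag1-KO siGLO (110, 79.8 and 94.9) lay within or near the range of WT siGLO. Nkx6-2 shares 246 bases of exon with the opposite-strand gene Inpp5a, which had 608 to 713 normalized counts in WT siGLO, 517 to 571 in Stag2-KO siGLO and 535 to 540.1 in Stag2-KO siStag1, with log2 fold changes of -0.31 ± 0.125 in both (adjusted p = 0.096 and 0.0648).

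Nkx2-5, a cardiac regulator, had 43.9, 20.3 and 26.1 normalized counts in WT siGLO and 8.87, 12.5 and 20.2 in Stag2-KO siStag1. The groups were separated by a narrow margin (20.2 against 20.3), with a log2 fold change of -1.12 ± 0.389 (adjusted p = 0.034) that was lost without WT siGLO replicate 1 (-0.75) or Stag2-KO siStag1 replicate 1 (-0.88). Nkx2-9, a ventral neural tube gene, rose in the same comparison from 15.9, 18.3 and 12.6 to 45.3, 25 and 19.2 (log2 0.94 ± 0.383, adjusted p = 0.0672). It was no longer called without WT siGLO replicate 1 (0.95) or 3 (0.8) or Stag2-KO siStag1 replicate 1 (0.5). Nkx2-5 and Nkx2-9 were not called in Stag1-KO siGLO (14.6 to 20.8 and 18.7 to 32.1) or Stag2-KO siGLO (18.3 to 35.9 and 12.7 to 28.6).

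Of the 7 PAX genes only Pax3 and Pax8 were tested. Pax3, a regulator of the dorsal neural tube, neural crest and muscle precursors, had 2.81, 3.05 and 0 normalized counts in WT siGLO. It stood at 4.23, 7.54 and 12.7 in Stag2-KO siGLO and at 10.8, 21.8 and 23.3 in Stag2-KO siStag1, all above WT siGLO. The log2 fold changes were 2 ± 0.765 (adjusted p = 0.0757) and 3.18 ± 0.69 (adjusted p = 0.00198). The latter held without any single library, and the former was lost without WT siGLO replicate 2 (2.42) or 3 (1.44) or Stag2-KO siGLO replicate 2 (2.05) or 3 (1.54). Stag2-KO siStag1 and Stag2-KO siGLO overlapped and did not pass the test against each other. In Stag1-KO siGLO (8.86, 2.92 and 3.62) and WT siStag1 (2.33, 0.92 and 3.87) Pax3 was not called.

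Pax8, a thyroid and kidney regulator, varied with the replicate number in every condition. It was at 32.7, 25.4 and 15.5 in WT siGLO, 35, 12 and 10.6 in WT siStag1, 19.7, 10.7 and 3.62 in Stag1-KO siGLO, 75.1, 15.1 and 11.6 in Stag2-KO siGLO and 44.4, 9.36 and 12.1 in Stag2-KO siStag1. The library numbered 1 was the highest of each condition. Without the block no comparison of all libraries called it (without Stag2-KO siGLO replicate 3 the adjusted p between the knockouts was 0.0971), and with the block it was lower in Stag1-KO siGLO than in WT siGLO (log2 -1.25, adjusted p = 0.0431) and than in Stag2-KO siGLO (log2 -1.43, adjusted p = 0.0169).

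LHX factors carry 2 LIM domains beside the homeodomain and act through LDB proteins. Lhx6, which specifies cortical interneurons, was the only member called lower than WT siGLO in both knockouts and in Stag2-KO siStag1. Its normalized counts were 53.3, 53.9 and 60 in WT siGLO, 39.4, 34.1 and 33.5 in Stag1-KO siGLO, 27.5, 29.1 and 23.2 in Stag2-KO siGLO and 27.6, 38.5 and 45.5 in Stag2-KO siStag1. All 9 libraries of these 3 conditions were below the wild-type ones. The log2 fold change was -0.64 ± 0.248 (adjusted p = 0.0979), -1.06 ± 0.257 (adjusted p = 0.00861) and -0.58 ± 0.248 (adjusted p = 0.0782) in the same order. Only the call in Stag2-KO siGLO held without any single library. The one in Stag1-KO siGLO was lost without each of the 6 libraries (log2 -0.72 to -0.59, adjusted p up to 0.211) and by DESeq2. That in Stag2-KO siStag1 was lost without WT siGLO replicate 1, 2 or 3 or Stag2-KO siStag1 replicate 1 or 2 (log2 -0.75 to -0.41, adjusted p up to 0.249). WT siStag1, at 39.6, 64.4 and 51.3, overlapped WT siGLO (log2 -0.1, adjusted p = 0.999).

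Lhx2, a forebrain and eye gene, was not called in the unblocked fit. Its Stag1-KO siGLO (20.7, 22.4 and 19) and Stag2-KO siGLO (21.2, 23.7 and 22.2) libraries were all below WT siGLO (34.6, 25.4 and 52.3). The log2 fold changes were -0.85 ± 0.342 (adjusted p = 0.112) and -0.74 ± 0.343 (adjusted p = 0.139), and with the replicate block the adjusted p was 0.0576 and 0.0825. Lhx3, a pituitary gene with 0 to 17.8 normalized counts, was never called.

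DLX genes are arranged in convergently transcribed pairs and act in forebrain, limb and placenta, and the 6 members form 3 such pairs whose starts lie 18.6 to 26.1 kb apart. Only Dlx3, a gene of placenta and epidermis, was tested. It had 16.8, 38.6 and 53.2 normalized counts in WT siGLO, 41.3, 90.5 and 40.7 in Stag1-KO siGLO, 12.7, 22.6 and 20.1 in Stag2-KO siGLO and 30.2 to 37.5 in Stag2-KO siStag1, and no condition was called against WT siGLO, although Stag2-KO siGLO was without WT siGLO replicate 1 (log2 -1.31, adjusted p = 0.0958). The Stag1-KO and Stag2-KO libraries did not overlap and were called against each other (log2 1.63 ± 0.52, adjusted p = 0.0394), a call lost without Stag1-KO siGLO replicate 2 (1.15) or Stag2-KO siGLO replicate 1 (1.42). The 3 trophoblast markers summed to 112 to 134 in Stag1-KO siGLO, 3.17 to 48.7 in Stag2-KO siGLO and 26.1 to 36.6 in WT siGLO, and their part in the Dlx3 difference was not tested. Hand1 gave most of the Stag1-KO siGLO sum, with a mean of 87 against 10.7 in Stag2-KO siGLO (edgeR adjusted p = 0.00137). Cdx2 was not called between the knockouts (adjusted p = 0.225), and Elf5 had too few counts to test.

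The other 5 DLX genes had too few counts to test. Dlx5 and Dlx6, neighbours on chromosome 6, had nearly all their counts in Stag2-KO cells. Dlx5 had 0 counts in all 9 libraries of WT siGLO, WT siStag1 and Stag1-KO siGLO, 1, 2 and 2 in Stag2-KO siGLO and 8, 4 and 5 in Stag2-KO siStag1. Dlx6 had 11, 6 and 1 counts in Stag2-KO siStag1 and at most 2 in any other library. With no filter on low counts both were called in Stag2-KO siStag1 against WT siGLO (adjusted p = 0.00791 and 0.0141).

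Altogether 20 members were not tested: Dlx1, Dlx2, Dlx4, Dlx5, Dlx6, Lhx1, Lhx4, Lhx5, Lhx8, Lhx9, Irx6, Nkx2-2, Nkx6-1, Pax1, Pax2, Pax5, Pax7, Pax9, Emx1 and Emx2. They had between 3 and 87 counts in all 15 libraries together and at most 16 in any single library. Apart from Dlx5, Dlx6 and Pax2, none of the 20 was called in a fit with no filter on low counts, which at this depth does not show that there was no difference. Between the knockouts Pax1 was called without Stag1-KO siGLO replicate 2 (adjusted p = 0.0636) and Dlx4 without Stag2-KO siGLO replicate 3 (adjusted p = 0.0619), both higher in Stag1-KO siGLO. With no filter on low counts Pax2, a midbrain and kidney gene, was called lower in Stag1-KO siGLO than in WT siGLO (adjusted p = 0.0645) and than in Stag2-KO siGLO (adjusted p = 0.0271), having 0 counts in all 3 Stag1-KO libraries and 0.935 to 5.81 normalized counts in WT siGLO.

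Depletion of STAG1 by siRNA in wild-type cells changed no member past the threshold. The smallest adjusted p among the 28 was 0.778 (Pitx1, log2 -1.24 ± 0.569), 1 member had an unadjusted p under 0.05, and DESeq2 and the replicate block also called 0 members. Few genes of any kind were called there (0.248%, with 0.103% higher and 0.145% lower). In Stag2-KO cells siStag1 changed En1 alone among the 28 (3.57%), where 6.37% of all genes were called, 2.98% higher and 3.39% lower. There, 5 members had an unadjusted p under 0.05, 3 were called with the replicate block (En1 lower, Six5 and Irx1 higher), where 14.1% of all genes were, and without Stag2-KO siGLO replicate 3 the calls were 2, En1 and Six5. The difference between the siStag1 effects in the 2 genotypes was called for no member by edgeR or DESeq2 (2 with an unadjusted p under 0.05) and for 0.159% of all genes, 0.0207% higher and 0.138% lower.

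The Stag1-KO and Stag2-KO clones were also compared with each other. Stag1-KO siGLO had lower Six2, Six3, Irx3, En1, En2 and Otx1 and higher Dlx3 and Six4 than Stag2-KO siGLO. These are 8 of 28 members (28.6%), where 25.7% of all genes were called, 12.7% higher and 12.9% lower in Stag1-KO siGLO, and the median log2 difference was -0.29 for the members and -0.03 for all genes. Six2 and Six3 passed the filter only through Stag2-KO libraries, in which they are high. Their tests, this count and this median therefore depend in part on the filter. Of the 8, Six2 (log2 -2 ± 0.482, adjusted p = 0.00925), Six3 (-4.02 ± 0.815, adjusted p = 0.0029), Irx3 (-2.61 ± 0.455, adjusted p = 0.000931), En1 (-3.54 ± 0.578, adjusted p = 0.000559) and Six4 (0.56 ± 0.126, adjusted p = 0.00563) held without any single library. Among these, En1 was -2.88 without Stag2-KO siGLO replicate 2 and -4.5 without Stag1-KO siGLO replicate 1, and Six3 was -4.83 without Stag1-KO siGLO replicate 3. En2 (-0.66 ± 0.228, adjusted p = 0.0537) was lost without Stag1-KO siGLO replicate 1 (-0.69) or 2 (-0.48) or Stag2-KO siGLO replicate 3 (-0.53). Otx1 (-2.35 ± 0.72, adjusted p = 0.0333) was lost without Stag1-KO siGLO replicate 2 (-2.19) or Stag2-KO siGLO replicate 2 (-1.92), and was -3.67 and -1.75 without Stag1-KO siGLO replicates 1 and 3. Irx3 did not overlap between the clones, with 9.84 to 19.9 normalized counts in Stag1-KO siGLO and 33.9 to 122 in Stag2-KO siGLO. With the replicate block Six5, Irx2, Pax8 and Msx1 were called in addition (adjusted p = 0.027, 0.0631, 0.0169 and 0.0794), where 37.3% of all genes were called.

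**Figure D4:**
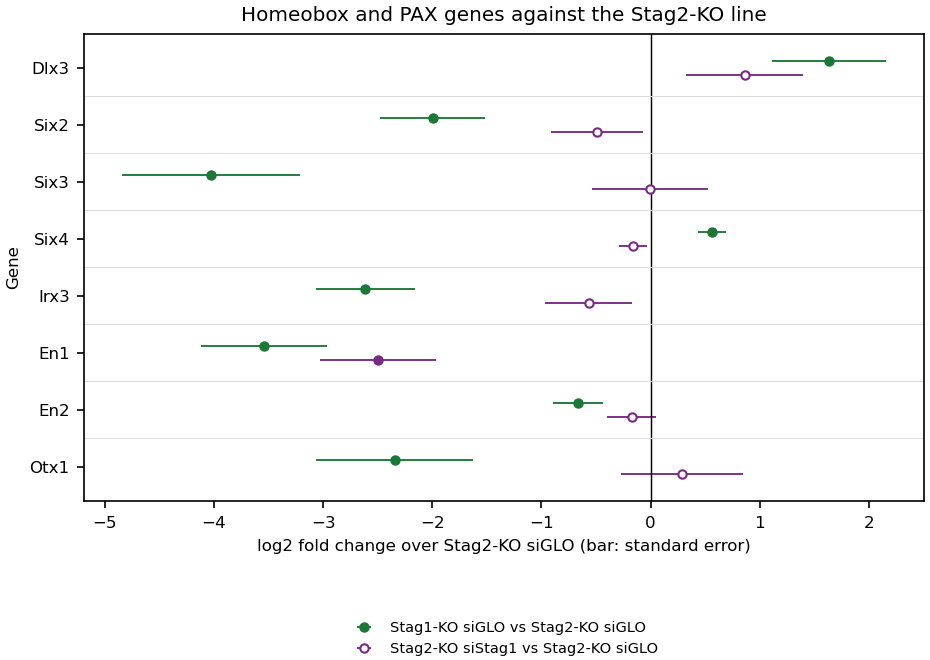
Log2 fold change over Stag2-KO siGLO with its standard error (x axis) of the 8 members called in either comparison (y axis), for Stag1-KO siGLO (green) and Stag2-KO siStag1 (purple), 3 libraries each; filled points are called. En1 lies below 0 with filled points in both, and Six2, Six3, Irx3, En2 and Otx1 only in Stag1-KO siGLO.

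Neighbouring members were not always called together. Of the 12 pairs of members whose starts lie within 1 Mb of each other, 5 join genes that were both tested. Six2 and Six3 (74.7 kb apart) were both higher in Stag2-KO siGLO, whereas Six4 and Six6 (174 kb) were called in opposite directions there. The calls of Six2 and Six6 in that comparison were lost when some single libraries were left out, and the Six6 groups overlapped. Irx3 was lower in Stag1-KO siGLO without a call for Irx5 (556 kb), Irx1 was higher in Stag2-KO siStag1 without a call for Irx2 (665 kb), and Irx4 was higher in Stag1-KO siGLO, again without a call for Irx2 (632 kb). Whether the members of a pair differ in their change was not tested.

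Homeodomain, SIX-family, LIM and PAX factors act with partner proteins, and 25 genes for such partners were examined, of which 24 were tested. In Stag2-KO siGLO 7 were higher and 1 lower than in WT siGLO, and in Stag2-KO siStag1 8 were higher and 2 lower, against 2 higher and 0 lower in Stag1-KO siGLO. These are 33.3%, 41.7% and 8.33% of the list, beside the 28.3%, 43.9% and 20.0% of all genes, and the median log2 fold change of the list was 0.13, 0.52 and 0.12. By class, 4 of 8 TALE homeodomain cofactors and 2 of 6 SIX-family partners were called in Stag2-KO siGLO, 2 of 5 LIM partners, and none of the 4 Groucho corepressors or the PAX partner Paxip1. With the replicate block 8 partners were higher and 2 lower there, where 39.4% of all genes were called. The block added the TALE gene Pbx2 (higher, adjusted p = 0.0509) and the Groucho gene Tle2 (lower, adjusted p = 0.0414). Dach1, a corepressor of SIX-family factors, had 2.81, 2.03 and 1.94 normalized counts in WT siGLO and 4.23, 56 and 153 in Stag2-KO siGLO (log2 4.9 ± 1.09, adjusted p = 0.0052). Meis2, a TALE cofactor, had 45.8, 28.5 and 20.3 in WT siGLO, 67.7, 345 and 276 in Stag2-KO siGLO (log2 2.85 ± 0.472, adjusted p = 0.000597) and 7.79 to 18.1 in Stag1-KO siGLO. Dach1, and the LIM partner Ldb2 but for a single WT siStag1 library, reached 10 counts only in Stag2-KO libraries, so these partners too were tested only through the libraries in which they are high, and the counts and medians of the partners depend in part on the filter. For Dach1 and Meis2 Stag2-KO siGLO replicate 1 was the lowest of its condition, as it was for En1 and Irx3.

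In Stag2-KO siStag1 the 2 largest changes of the partners were Dach1 (log2 4.75 ± 1.1, adjusted p = 0.00309) and Eya1, a coactivator of SIX-family factors (log2 2.69 ± 0.293, adjusted p = 4.14e-06). Eya1 had 43 to 45.8 normalized counts in WT siGLO, 83.6, 150 and 205 in Stag2-KO siGLO and 197, 282 and 377 in Stag2-KO siStag1, and it was the only partner called between the siRNAs in Stag2-KO cells (log2 0.97 ± 0.267, adjusted p = 0.0555) in the fit without the replicate block, although those groups overlap. That count was 0 without Stag2-KO siGLO replicate 2 or Stag2-KO siStag1 replicate 2 or 3, and 3 with the block. In Stag1-KO siGLO the LIM-only gene Lmo4 (log2 0.5 ± 0.153, adjusted p = 0.0397) and the TALE gene Pknox1 (log2 0.25 ± 0.092, adjusted p = 0.0851) were the 2 partners called, and that count was 0 without WT siGLO replicate 2, WT siGLO replicate 3 or Stag1-KO siGLO replicate 1, 1 without Stag1-KO siGLO replicate 2 and 5 with the replicate block. Between the knockouts 2 partners were higher and 10 lower in Stag1-KO siGLO (50% of the list, beside 25.7% of all genes, 12.7% higher and 12.9% lower), led by the LIM partner Ldb2 (log2 -4.23 ± 0.876, adjusted p = 0.00336) and Meis2 (log2 -4.1 ± 0.523, adjusted p = 7.85e-05), and the count of 12 was 7 without Stag1-KO siGLO replicate 3, 5 without Stag2-KO siGLO replicate 2 and 7 without Stag2-KO siGLO replicate 3. WT siStag1 called none of the 24.

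**Figure D5:**
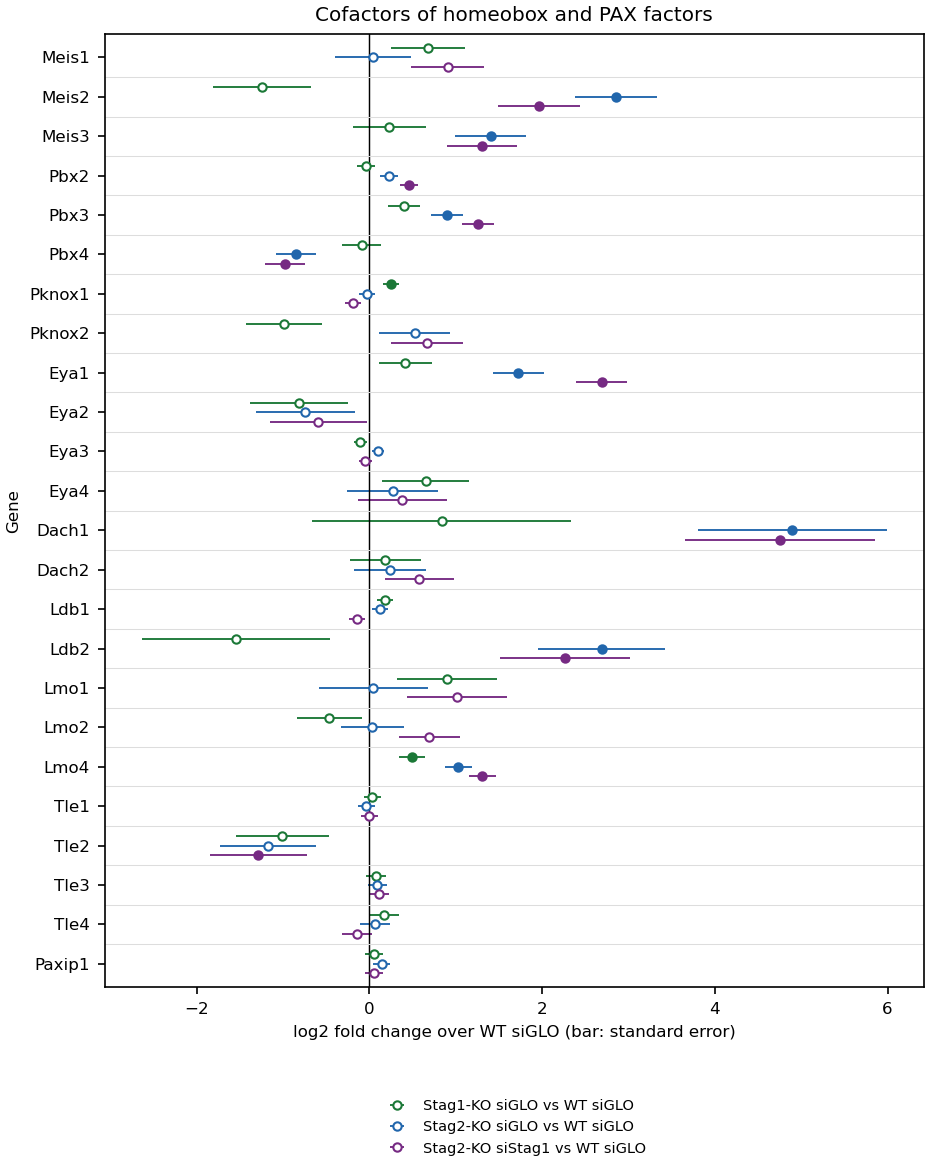
Log2 fold change over WT siGLO with its standard error (x axis) of the 24 tested partner genes (y axis) in Stag1-KO siGLO (green), Stag2-KO siGLO (blue) and Stag2-KO siStag1 (purple), 3 libraries each; filled points are called. Dach1, Meis2, Ldb2 and Eya1 lie furthest to the right in both Stag2-KO conditions, and Lmo4 and Pknox1 are the only filled points of Stag1-KO siGLO.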

How the data were processed

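PolyA RNA-seq libraries (150 bp paired-end reads) were aligned to mm10 with STAR, and the authors deposited raw counts per gene, one table per library. The counting tool, annotation and strand setting are not given in the sources used here. Besides Six3, other tested members share exon bases in GENCODE M21 with genes that were not counted. These are Gbx2 (946 bases, D130058E05Rik), Pax8 (367, Gm13415), Lhx3 (188, Gm27196), Pitx1 (165, Gm47071, and 108, Gm28760), Irx3 (124, Irx3os) and Lhx6 (104, Gm27953). Gm28760 and Gm27953 lie on the strand of the member. Whether reads of these overlaps came from the member cannot be told. The tables hold 23412 genes and 4 summary lines, which were left out. The members and gene lists were chosen with earlier results of these data known.

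The tests used edgeR 4.0.16 under R 4.3.3. Low genes were removed by filterByExpr given the conditions, at a count of 10 and a total of 15, TMM factors were computed, and glmQLFit was run on the 15 libraries with a coefficient for each condition. Two-sided glmQLFTest contrasts followed, with Benjamini-Hochberg adjustment over the 14508 genes tested and calls under 0.1. The SE is the log2 fold change divided by the square root of F. Normalized counts are on a common depth of 17409359. A tested member called in any comparison was named with its counts in single libraries, for some of them not in every condition. The other members were given by such counts or by ranges, and of the partner genes the 2 largest changes were named. A gene of the partner list is not reported here and is left out of its counts. Gene positions and exon lengths come from GENCODE M21 (mm10), which held all 48 members, and promoters from RefSeq (GRCm38.p6). Only the test of Stag2-KO siGLO against WT siGLO was run on simulated counts, which held no structure by replicate number. The outcome is not given here. Plots were made by matplotlib 3.10.9 under Python 3.11.15.

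The replicate numbers come from the sample labels. Deviations from the condition means, over 12439 genes with at least 10 counts in every library, correlated between same-numbered libraries at 0.284 on average (30 pairs) and at -0.139 between others (60 pairs). Since the deviations within a condition cancel by construction, the second mean follows largely from the first and is no separate evidence. All 3 pairs exceeded 0.1 in each pairwise comparison except Stag2-KO siStag1 against WT siGLO (lowest 0.0359). The fit with the number as a block is therefore given for those comparisons where it changed the call of a member. For partner genes and cell type markers only part of such changes is given.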

Additional observations from a re-analysis of the deposited data

How the results depend on the processing

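No called value changed direction under any alternative. The members called in Stag1-KO siGLO against WT siGLO (5) were 2 at an adjusted p under 0.05, 8 with the replicate block, and 2 to 5 with single libraries left out (2 or 3 without any but WT siGLO replicate 1). Those in Stag2-KO siGLO (9) were 5 at an adjusted p under 0.05, 3 with at least 10 counts in every library, and 5 (without WT siGLO replicate 2) to 10 with single libraries left out. With at least 10 counts in every library 37 members instead of 20 could not be tested, and the calls were 6 (of 11) for Stag2-KO siStag1 against WT siGLO, 3 (of 8) between the knockouts and 0 (of 1) between the siRNAs in Stag2-KO cells, since fewer genes were tested. The last count was 3 with the replicate block, 0 in a fit of only the libraries compared, and 1 to 2 (2 without Stag2-KO siGLO replicate 3) with single libraries left out. For the partner genes, the count in Stag1-KO siGLO (2) was 1 at an adjusted p under 0.05, 1 with no expression filter, 5 with the replicate block, 5 in a fit of only the libraries compared and 0 to 2 with single libraries left out (0 without WT siGLO replicate 2 or 3 or Stag1-KO siGLO replicate 1, 1 without its replicate 2). With at least 10 counts in every library it was 5 (of 8) for Stag2-KO siGLO and 6 (of 10) for Stag2-KO siStag1, each against WT siGLO. Between the knockouts it was 6 (of 12) in a fit of only the libraries compared, and 5 to 11 when single libraries were left out (7 without Stag1-KO siGLO replicate 3, 5 and 7 without Stag2-KO siGLO replicates 2 and 3). Between the siRNAs in Stag2-KO cells (1) it was 0 at an adjusted p under 0.05, 2 by DESeq2, 3 with the replicate block, 0 with only the libraries compared, and 0 to 4 with single libraries left out (0 without Stag2-KO siGLO replicate 2 or Stag2-KO siStag1 replicate 2 or 3, 2 without Stag2-KO siGLO replicate 3, 4 without Stag2-KO siStag1 replicate 1). Apart from what the construction of an alternative shows, the cause was not tested.

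For Stag2-KO siStag1 against WT siGLO and for the difference between siStag1 effects, whose 4 conditions include that pair, not every same-numbered correlation exceeded 0.1, and the numbers were not taken to pair the libraries, although they did within each siRNA contrast. With the replicate block Six6, Gbx2 and En2 were called in addition in the former (adjusted p = 0.0816, 0.0136 and 0.0759), and the latter stayed at 0. The block ended no call. Of the calls of single members, 150 of 204 held with 1 library left out, and DESeq2 size factors, library size alone and DESeq2 ended 1, 0 and 2. The fits with no expression filter (Six2, Irx4, Irx5 and Lhx6 in 2 comparisons) and of only the libraries compared (Nkx6-2, Nkx2-9, Lhx6, En1 and En2) ended 5 each. Limits remain: most members have under 200 normalized counts, and each knockout is 1 clone.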
